A study of Mus musculus with 41 samples.

Results

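SOX9 sites seen only at W12 (W12-only sites) were 1293 of the 9745 peaks of the W12 SOX9 CUT&RUN (CNR) list, 13.3% of that list. They were selected on the peak calls themselves, as W12 peaks that no SOX9 peak of D0, W1, W2 or W6 overlapped by even 1 bp. Their number and their absence from the 4 earlier lists are therefore a description and not a result. They were read beside the 8452 other W12 peaks (W12 seen earlier), of which 98.0% overlapped a W6 peak, and beside 4024 W6-only sites, defined in the same way from the W6 list against D0, W1, W2 and W12.

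CNR releases and sequences the DNA around an antibody-bound protein. Epidermal stem cells (EpdSCs) came from back skin of male CD1 mice carrying K14rtTA and TRE-myc-Sox9. A MYC-tagged Sox9 is expressed in them under doxycycline (DOX), in cells in which the Krt14 promoter drives rtTA, and the uninduced D0 animals carry both transgenes too. SOX9 CNR was made at D0 and after 1, 2, 6 and 12 weeks of DOX (W1 to W12), and MLL3/4 CNR at D0, W1 and W2. The mice were at postnatal day 21, 28, 35 and 63 at D0, W1, W2 and W6. The W12 skin was neonatal epidermis grafted onto Nude hosts and healed before DOX, so that weeks of DOX, age and grafting cannot be told apart in any W12-only site. Keratinocytes in culture expressed 1 of 3 forms of tagged SOX9, namely the wild type (WT-SOX9), a form that lacked the transactivation domain (dTA-SOX9) and a form that lacked the HMG domain with which SOX9 binds DNA (dHMG-SOX9). Their MYC-tag and MLL3/4 CNR was made with DOX at 1 µg per ml, and for WT-SOX9 cells also without DOX. Every group used here had 2 samples that the authors pooled into 1 peak list, so no spread between samples could be computed. Both MLL3/4 samples of WT-SOX9 cells with DOX are described as the same replicate while their titles number them apart, and the pooled list was used as labelled. Shares are given with 95% confidence intervals (CI) over peaks, Wilson for a share and Newcombe for a difference of 2 shares, and these cover counting error only. A difference is called larger than counting error where its interval leaves out 0. Peak lists hold no expression, so the labelled cell type could not be checked against marker genes.

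SOX9 is an HMG-box transcription factor that bends DNA and can bind sites in closed chromatin. It maintains hair follicle stem cells and is known from basal cell carcinoma. MLL3 and MLL4 are the methyltransferases that mark enhancers, and AP1 dimers of FOS and JUN proteins are general factors of epithelial, stress and wound enhancers.

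The letters beneath the strongest W12-only sites show the words that the comparisons count. Each window reaches 50 bp to either side of the centre of the signal maximum and was read from the mm10 (GRCm38) reference, with counted words in capitals. Windows with a SOX word (CCATTGT or CCTTTGT, or the same words beginning with G, which are GCATTGT or else GCTTTGT, on either strand) and no AP1 word are shown first, named by the nearest protein-coding gene:
Phldb2, chr16:45937613-45937713, plus strand: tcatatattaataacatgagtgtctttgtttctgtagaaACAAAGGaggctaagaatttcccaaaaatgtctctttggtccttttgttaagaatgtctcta
Gdf6, chr4:9974849-9974949, plus strand: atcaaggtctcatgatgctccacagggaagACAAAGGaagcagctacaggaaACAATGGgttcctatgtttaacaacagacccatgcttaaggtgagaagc
Eya4, chr10:23185581-23185681, plus strand: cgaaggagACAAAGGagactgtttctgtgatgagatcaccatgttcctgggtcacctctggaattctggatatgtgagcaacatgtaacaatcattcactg
The Phldb2 site lay in an intron of that gene, which encodes an anchor of microtubules at the basal cell cortex. The site near Gdf6, a ligand of the BMP family, was intergenic and held 2 SOX words. The Eya4 site lay 25 bp upstream of an annotated start of that transcriptional coactivator.

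Windows with the AP1 word (TGACTCA, which reads TGAGTCA on the other strand) and no SOX word are shown because AP1 was commoner in the set than the SOX words of the same length:
Tex36, chr7:133519153-133519253, plus strand: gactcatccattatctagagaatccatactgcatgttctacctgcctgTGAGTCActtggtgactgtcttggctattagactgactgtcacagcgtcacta
Lhfpl3, chr5:23139292-23139392, plus strand: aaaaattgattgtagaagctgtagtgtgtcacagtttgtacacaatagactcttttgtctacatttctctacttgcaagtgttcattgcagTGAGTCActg
The Tex36 site was intergenic, 82955 bp from the start, and the Lhfpl3 site was intronic, with 60.4% of its window in masked repeat and its AP1 word near the edge. Windows with both words, starting with the strongest W12-only site of all, were these:
Pcdh15, chr10:74538485-74538585, plus strand: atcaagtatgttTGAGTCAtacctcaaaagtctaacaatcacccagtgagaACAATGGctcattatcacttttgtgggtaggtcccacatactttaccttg
Nuf2, chr1:169373522-169373622, plus strand: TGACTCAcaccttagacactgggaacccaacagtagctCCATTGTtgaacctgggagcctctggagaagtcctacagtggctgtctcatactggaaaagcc
The Pcdh15 site lay in an intron of this protocadherin gene of sensory hair cells, 583 bp wide, and the site near Nuf2 was intergenic. The RUNX word (AACCACA) is shown once, in an intron of the zinc transporter gene Slc39a11:
Slc39a11, chr11:113523696-113523796, plus strand: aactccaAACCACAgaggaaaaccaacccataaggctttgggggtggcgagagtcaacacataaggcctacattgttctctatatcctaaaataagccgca

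W12-only sites were mostly weak peaks of their list. Their maximum signal ran from 1838 to 8456 RPKM with a median of 2160, against a median of 2666 for the W12 peaks seen earlier and 2141 for W6-only sites. The step between RPKM values, taken as 1 fragment counted base by base, gives the depth behind a list. In units of 1e6 fragments it was 21.8 at W12 and 13.1 to 32.5 in the earlier SOX9 lists. That 1 step is 1 fragment was assumed, and a step of 1 read would change the fragment numbers. Since 1 fragment was worth 46 RPKM at W12, the median W12-only site rested on 47 fragments at its maximum and the weakest on 40, where the authors' limit of 1800 RPKM ended the list. A maximum above 3600 RPKM was reached by 58 members (4.49%, against 21.8% of all W12 peaks and 3.03% of W6-only sites), and 1059 stood at or below 2700 (81.9%, against 55.7% and 84.4%). With the W12 list cut by total signal into 10 equal parts, W12-only sites made up 0.718% of the highest part and 36.3% of the lowest. Their median width was 374 bp, against 481 bp for those seen earlier and 488 bp for W6-only sites. A site just under the limit at an earlier time point would count as absent there, and the lists do not show such sites.

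**Figure D1:**
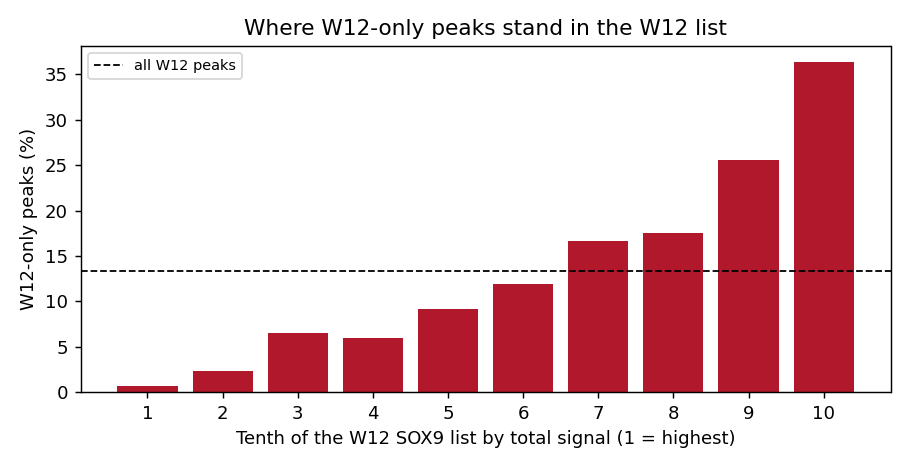
Share of W12-only sites (%) in 10 equal parts of the W12 SOX9 list ordered by total signal, from the highest (1) to the lowest (10). The bars go from 0.718% to 36.3%, and the dashed line marks the 13.3% of the whole list.

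Since the rule left no member on an earlier SOX9 peak, the gaps to such peaks are a description. They were not set beside the gaps of other peaks. The gap to the nearest peak of the D0 to W6 lists had a median of 34967 bp, with quartiles of 8417 and 121210 bp. It was under 500 bp at 39 members and under 10000 bp at 354 (27.4%). The members closest to the border of the rule were an intronic site of Mbp (gap 52 bp, 2206 RPKM), an intronic site of Car13 (83 bp, 1976 RPKM) and an intergenic site near Kif26a (88 bp, 1976 RPKM). On the other side of the rule, the W12 peaks with the smallest overlaps shared 76 bp, near Pou4f1 (16131 RPKM), and 77 and 78 bp, both at Gm10717 (1838 and 2941 RPKM), and over 90% of the window of each was masked repeat.

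W12-only sites lay at promoters less often than the other sets and farther from transcription starts. Of them, 651 (50.3%) had their maximum in an intron, 590 (45.6%) between genes and 52 (4.02%) on an exon, against 49.9%, 45.0% and 5.14% of all W12 peaks. Promoters, reaching 1 kb up- and downstream of every annotated transcript start, took up 103 (7.97%, 95% CI 6.61 to 9.57), against 14.3% of all W12 peaks. The share was 15.2% in W12 peaks seen earlier, a difference of -7.25 points (95% CI -8.81 to -5.48), and 16.5% in W6-only sites, a difference of -8.56 points (95% CI -10.4 to -6.61). Above 3600 RPKM, where 58 members remained, neither difference was larger than counting error. A distance over 100 kb to the nearest protein-coding start was found at 24.7% of members, 18.1% of those seen earlier and 15.3% of W6-only sites. Both differences, 6.68 points (95% CI 4.26 to 9.24) and 9.49 points (95% CI 6.94 to 12.1), were larger than counting error.

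Of the words compared at their main length, the AP1 word was the commonest at W12-only sites. It stood in 471 windows (36.4%, 95% CI 33.8 to 39.1), against 2.24% of windows of the same length 1 kb away and 29.8% of all W12 peaks. Peaks seen earlier held it in 28.8% of cases, 7.59 points fewer (95% CI of the difference 4.84 to 10.4), and W6-only sites in 26.7%, 9.76 points fewer (95% CI 6.83 to 12.7). Both differences kept their direction under every alternative tried. They were within counting error above 3600 RPKM, and the first was so too in the 50% of peaks with the highest total signal. Among peaks at or below 2700 RPKM, the shares were 37.3% for W12-only and 30.9% for peaks seen earlier.

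The SOX word was found in 268 members (20.7%, 95% CI 18.6 to 23.0), against 6.73% of control windows and 24.8% of all W12 peaks. Peaks seen earlier held it in 25.4% of cases, a difference of -4.66 points (95% CI -6.98 to -2.19). That difference moved with signal. Above 3600 RPKM it was -19.6 points. At or below 2700 RPKM the shares were 20.3% for W12-only and 19.5% for those seen earlier, a difference of 0.792 points (95% CI -1.81 to 3.57). It was also within counting error with windows of 100 bp to each side (-2.68 points), with shorter SOX words (CATTGT or CTTTGT, -1.37 points) and among the 50% of peaks with the highest total signal (-2.95 points). W6-only sites held the word in 19.1%, which was within counting error of the members (difference 1.64 points, 95% CI -0.817 to 4.22). The shorter SOX words stood in 40.7% of members and 31.1% of W6-only sites and brought that difference to 9.54 points (95% CI 6.53 to 12.6). An inverted pair of SOX words, CAANG and its reverse complement with 3 or 4 bases between, stood in 30 members (2.32%, control 0.193%), 3.80% of peaks seen earlier and 1.17% of W6-only sites.

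Of the members, 394 held an AP1 word without a SOX word, 191 a SOX word without an AP1 word, 77 both and 631 neither. Windows with both made up 5.96% of W12-only sites, 4.12% of peaks seen earlier and 2.68% of W6-only sites. The differences were 1.84 points (95% CI 0.592 to 3.32) and 3.27 points (95% CI 1.99 to 4.77). In the 77 windows the words lay a median of 20 bp apart, 17 of them within 10 bp, and 1 pair overlapped. The other peaks with both words had medians of 22 bp (seen earlier) and 21 bp (W6-only).

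**Figure D2:**
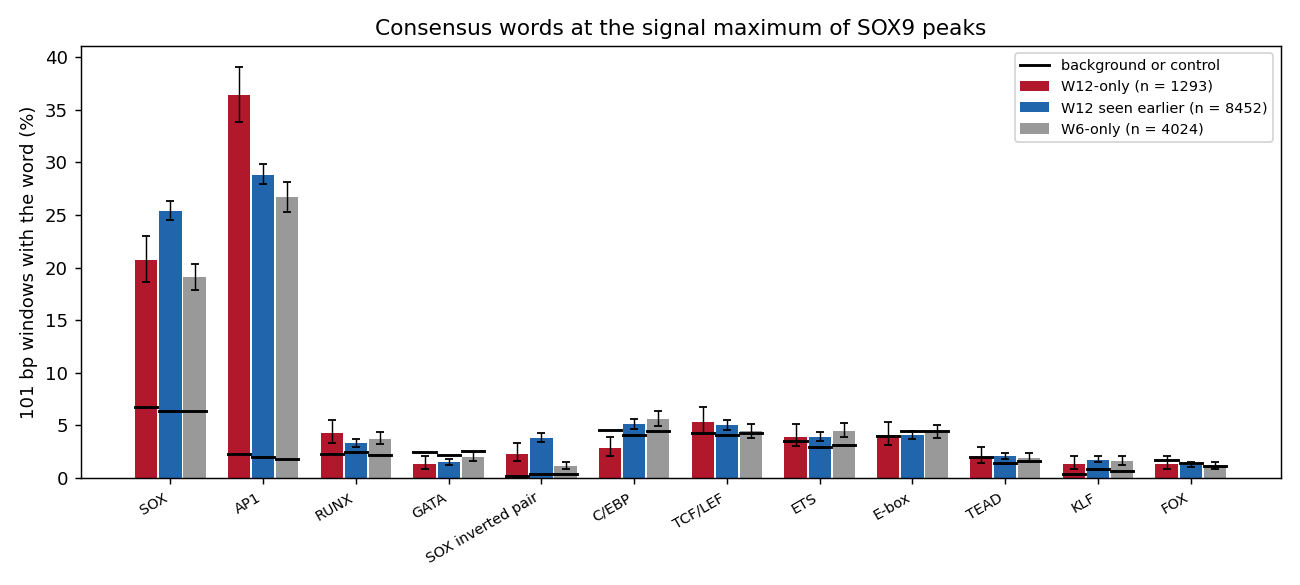
Share of windows (%) with each consensus word at W12-only sites, W12 peaks seen earlier and W6-only sites, with 95% Wilson intervals as error bars and the control windows 1 kb away as black lines. AP1 stood at 36.4%, 28.8% and 26.7%, and SOX at 20.7%, 25.4% and 19.1%.

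Both words centred on the signal maximum. AP1 words within 20 bp of it numbered 29.1 per 100 members, against 21.9 per 100 peaks seen earlier and 19.4 per 100 W6-only sites. AP1 words also formed a shoulder on each side. Counting both sides, 6.65 AP1 words per 100 members lay 26 to 45 bp from the maximum and 16.2 lay 46 to 75 bp from it, a band 1.5 times as wide. Those bands held 6.46 and 14.2 AP1 words per 100 peaks seen earlier and 5.86 and 9.97 per 100 W6-only sites. The bands were set after the positions had been seen. SOX words within 20 bp numbered 14.2 per 100 members, 18 per 100 peaks seen earlier and 10.1 per 100 W6-only sites. No such shoulder was apparent for them, with 6.50 words per 100 members at 26 to 45 bp and 9.13 in the wider band at 46 to 75 bp.

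**Figure D3:**
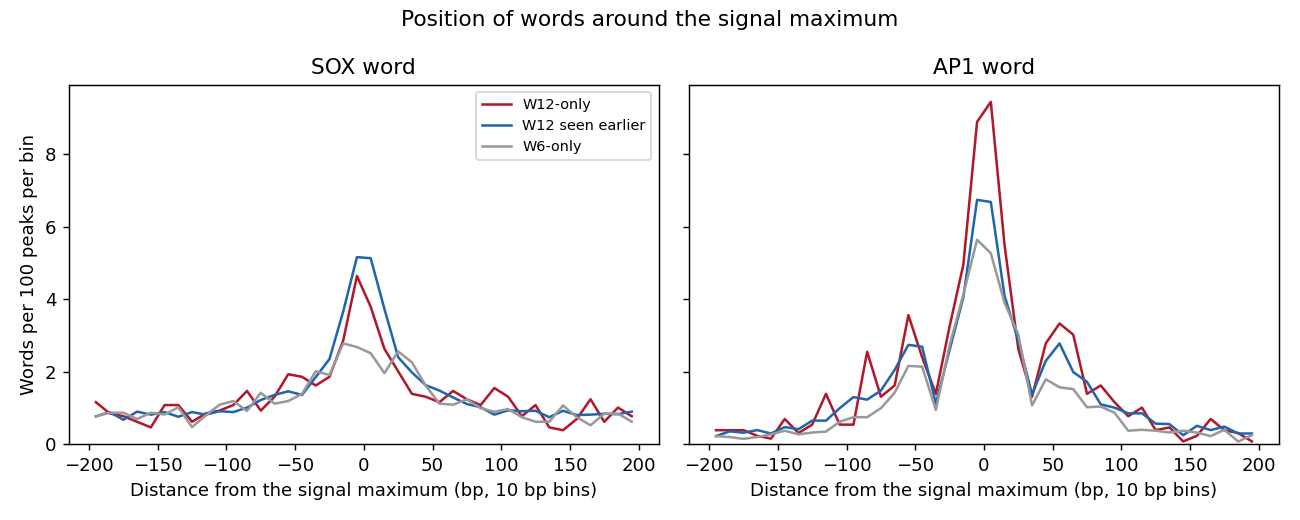
Number of SOX (left) and AP1 (right) words per 100 peaks in bins of 10 bp by distance from the signal maximum (bp), for W12-only sites, W12 peaks seen earlier and W6-only sites. AP1 words peaked at the maximum, at 9.44 per 100 members in the fullest bin, and rose again near 55 bp on either side. SOX words of the members were also densest at the maximum, at 4.64 per 100 in the fullest bin.

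The RUNX word stood in 55 members (4.25%, 95% CI 3.28 to 5.50), against 2.28% of control windows and 3.42% of all W12 peaks. Peaks seen earlier held it in 3.29% of cases and W6-only sites in 3.75%, both within counting error of the members, although below 2700 RPKM the first difference was 1.36 points (95% CI 0.0977 to 2.89). The GATA word (AGATAAC or AGATAAG) stood in 17 members (1.31%), below its control of 2.51%, with 1.51% in peaks seen earlier. A C/EBP word (TTGCNNAA) was found in 37 members (2.86%, control 4.60%), against 5.13% of peaks seen earlier and 5.62% of W6-only sites. Those differences were -2.27 points (95% CI -3.19 to -1.12) and -2.75 points (95% CI -3.84 to -1.50). Words of TEAD (ACATTCC), E-box (CAGCTG) and ETS (ACCGGAA or ACAGGAA) factors were at 2.01%, 4.10% and 3.94%, against control windows at 2.01%, 4.02% and 3.48%. A KLF word (CCACACCC) stood in 1.31% (95% CI 0.822 to 2.10), above its control of 0.425%, with 1.75% in peaks seen earlier and 1.62% in W6-only sites, both within counting error of the members. The CTCF and TP63 words were found in 0 of 1293 windows, which allows a share of up to 0.296% (upper Wilson bound), where control windows held them in 0.155% and 0.0387% and all W12 peaks in 0.0821% and 0.0308%.

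W12-only sites mostly had no MLL3/4 peak in skin before or early after induction. On D0 MLL3/4 peaks lay 93 of them (7.19%, 95% CI 5.91 to 8.73), against 2.01% for the same sites moved by 10 kb and 40.7% of all W12 peaks. Peaks seen earlier lay there in 45.9% of cases, a difference of -38.7 points (95% CI -40.4 to -36.8). W6-only sites lay there in 27.6%, a difference of -20.4 points (95% CI -22.3 to -18.3). Above 3600 RPKM these differences were -17.4 and -1.70 points, the second within counting error. MLL3/4 peaks of W1 and W2 covered 6.81% and 5.26% of the members, against 65.4% and 63.4% of peaks seen earlier and 22.3% and 24.6% of W6-only sites. In all, 152 members (11.8%) touched an MLL3/4 peak of skin at any of those 3 time points, against 65.0% of all W12 peaks, 73.1% of those seen earlier and 42.7% of W6-only sites. By the rule no member had a SOX9 peak at W1 or W2, while 67.5% and 70.8% of peaks seen earlier had one. The W1 and W2 contrasts with peaks seen earlier, and the contrast over all 3 time points, are therefore not independent of the selection. How much of them the rule accounts for was not tested. W6-only sites were also chosen without SOX9 peaks at D0, W1 and W2, so the contrasts with them do not carry this limit. MLL3/4 lists from W6 or W12 skin were not analysed here. The overlaps therefore set W12 SOX9 peaks beside skin of other mice, induced for at most 2 weeks and not grafted.

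In cultured keratinocytes the same sites had MLL3/4 more often than in skin, but less often than all W12 peaks. Without DOX, 442 members (34.2%, 95% CI 31.6 to 36.8) lay on MLL3/4 peaks, with a local background of 1.97% and 50.8% of all W12 peaks. W6-only sites did so in 35.1%, within counting error of the members (difference -0.955 points, 95% CI -3.89 to 2.05). In the 50% of peaks with the highest total signal that difference turned to 7.43 points (95% CI 0.311 to 14.7). Peaks seen earlier did so in 53.3%, a difference of -19.1 points (95% CI -21.9 to -16.3). Among the members with cultured no-DOX MLL3/4, 13.1% had MLL3/4 in D0 skin, against 70.5% of such peaks seen earlier and 47.6% of such W6-only sites. Counting all pooled cultured lists, 526 members (40.7%, 95% CI 38.0 to 43.4) lay on MLL3/4 in culture and on none in skin, against 12.8% of peaks seen earlier and 19.4% of W6-only sites. Those differences were 27.9 points (95% CI 25.2 to 30.7) and 21.3 points (95% CI 18.4 to 24.2). The first of them counts the skin lists of W1 and W2 and is therefore also not independent of the selection. This combination, the comparison of no-DOX MLL3/4 with W6-only sites and every comparison with dTA-SOX9 or between classes of members were chosen after values had been seen.

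The MYC-tag lists of cultured cells, made with another antibody, divided the members unevenly. WT-SOX9 peaks covered 163 of them (12.6%, 95% CI 10.9 to 14.5, background 0.619%), against 25.9% of all W12 peaks, 27.9% of those seen earlier and 5.96% of W6-only sites. The differences from the last 2 sets were -15.3 points (95% CI -17.3 to -13.2) and 6.64 points (95% CI 4.77 to 8.68). The first shrank to -4.77 points (95% CI -6.86 to -2.47) at or below 2700 RPKM, where 11.2% of members and 16.0% of peaks seen earlier were covered, and grew to -27.2 points (95% CI -37.3 to -14.4) above 3600 RPKM. The second was 15.3 points above 3600 RPKM and 11.9 points among the 50% of peaks with the highest total signal. By contrast, dTA-SOX9 peaks covered 458 members (35.4%, 95% CI 32.9 to 38.1, background 0.967%), against 34.4% of all W12 peaks. Peaks seen earlier were covered in 34.3% of cases, within counting error of the members (difference 1.13 points, 95% CI -1.62 to 3.96). That difference was 4.81 points (95% CI 1.70 to 8) at or below 2700 RPKM, 11.8 points among the 50% of peaks with the highest total signal and -7.03 points above 3600 RPKM. W6-only sites were covered in 10.3%, a difference of 25.1 points (95% CI 22.3 to 27.9). Cut to the length of the WT-SOX9 list, the dTA-SOX9 list still covered 26% of members and 5.82% of W6-only sites. Without DOX the MYC-tag list covered 2.24% of members (background 0.193%) and 6.51% of peaks seen earlier. With the list of replicate 1 alone these shares were 4.49% (background 0.348%) and 13.1%, and with dHMG-SOX9 3.40% (background 0.116%) and 8.28%.

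**Figure D4:**
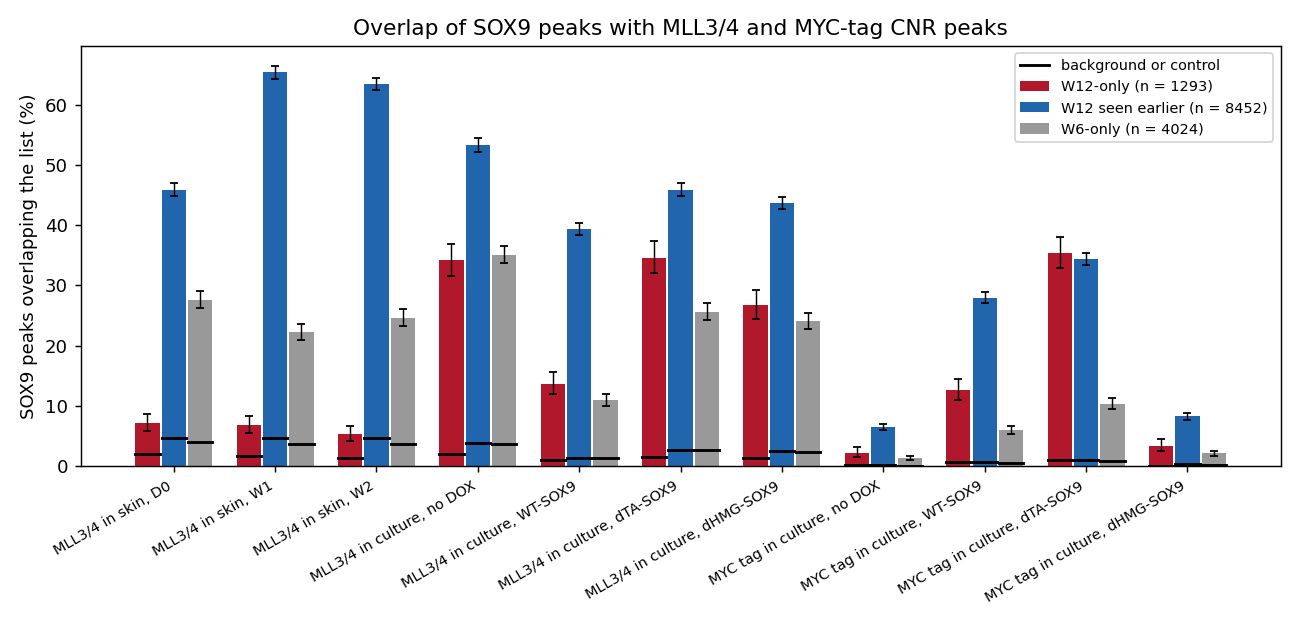
Share of SOX9 peaks (%) overlapping each MLL3/4 and MYC-tag list, for W12-only sites, W12 peaks seen earlier and W6-only sites, with 95% Wilson intervals as error bars and the same peaks moved by 10 kb as black lines. W12-only sites were at 7.19% on D0 MLL3/4 and at 35.4% on dTA-SOX9, where peaks seen earlier were at 45.9% and 34.3% and W6-only sites at 27.6% and 10.3%.

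Members on the different MYC-tag lists carried different words and MLL3/4. The 399 members on dTA-SOX9 without WT-SOX9 held the AP1 word in 39.6% (95% CI 34.9 to 44.5) and the SOX word in 14.8% (95% CI 11.6 to 18.6), and 63.7% of them lay on cultured no-DOX MLL3/4. The 104 on WT-SOX9 without dTA-SOX9 held the AP1 word in 22.1% (95% CI 15.2 to 31.0) and the SOX word in 37.5% (95% CI 28.8 to 47.1). Only 7.69% of these lay on no-DOX MLL3/4, while 46.2% lay on MLL3/4 peaks of WT-SOX9 cells with DOX. The differences, dTA-SOX9 minus WT-SOX9, were 17.5 points for AP1 (95% CI 7.44 to 25.9) and -22.7 points for SOX (95% CI -32.8 to -13.2). The inverted SOX pair stood in 8.65% of the WT-SOX9 members and 0.752% of the dTA-SOX9 members. Of the 59 on both lists, 67.8% lay on no-DOX MLL3/4 and 59.3% on MLL3/4 of WT-SOX9 cells. The 731 members on neither list held the AP1 word in 37.2% and the SOX word in 21.5%. Among W12 peaks seen earlier, 41.6% of such dTA-SOX9 sites and 10.1% of such WT-SOX9 sites held the AP1 word, a difference of 31.5 points (95% CI 28.8 to 34.1). In the same order, the SOX word stood in 15.0% and 43.7% of these, the inverted SOX pair in 0.655% and 9.67%, and no-DOX MLL3/4 covered 89.3% and 21.9%. The directions of the split were thus not particular to W12-only sites.

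**Figure D5:**
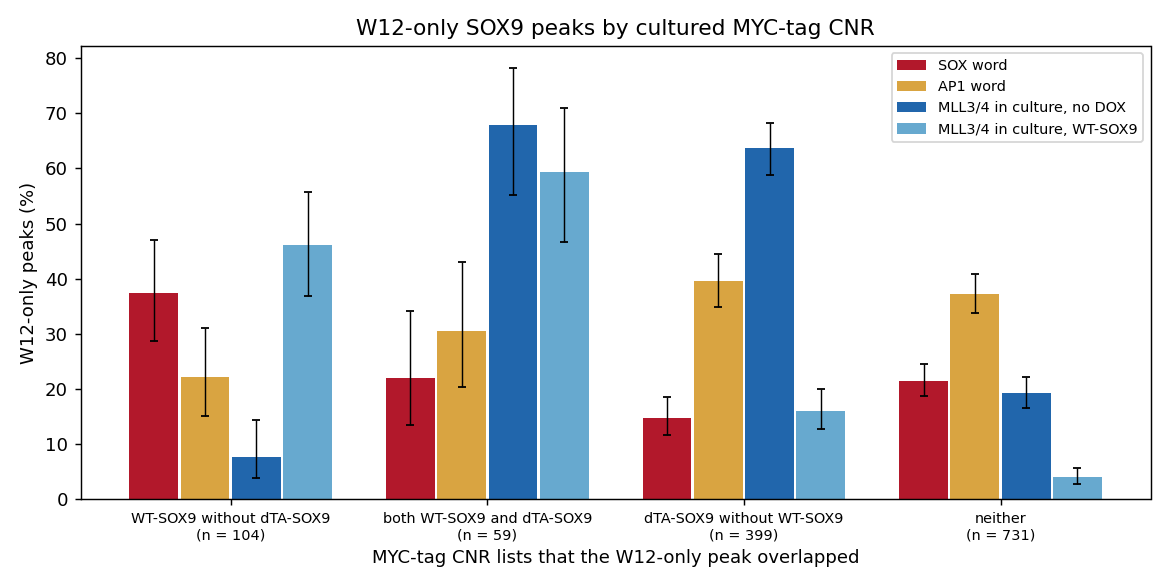
Share of W12-only sites (%) with a SOX word, an AP1 word, cultured no-DOX MLL3/4 or cultured WT-SOX9 MLL3/4, grouped by the MYC-tag lists they overlapped, with 95% Wilson intervals. No-DOX MLL3/4 stood at 7.69% of the 104 sites on WT-SOX9 alone and at 63.7% of the 399 on dTA-SOX9 alone.

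The 442 members on cultured no-DOX MLL3/4 were also looked up in the MLL3/4 lists made with DOX. The no-DOX list came from WT-SOX9 cells only. The dTA-SOX9 and dHMG-SOX9 lists therefore differ from it in the SOX9 form of the cells as well as in DOX. MLL3/4 peaks of WT-SOX9 cells covered 95 of them (21.5%), those of dTA-SOX9 cells 349 (79.0%) and those of dHMG-SOX9 cells 70.1%. The corresponding shares over the whole no-DOX MLL3/4 list were 18%, 55.7% and 56.5%. Peaks seen earlier were covered in 50.1% of cases with WT-SOX9, a difference of -28.6 points (95% CI -32.4 to -24.2). With dTA-SOX9 they were covered in 80.0%, within counting error of the members, and with dHMG-SOX9 in 78.1%, a difference of -7.96 points (95% CI -12.5 to -3.70). W6-only sites on no-DOX MLL3/4 were covered less than the members, in 16.7% of cases with WT-SOX9 (95% CI of the difference 0.690 to 9.27), 64.4% with dTA-SOX9 (95% CI 9.87 to 19) and 63.1% with dHMG-SOX9 (95% CI 1.98 to 11.9). The MLL3/4 list of WT-SOX9 cells was the shortest, with 10543 peaks against 25948 for dTA-SOX9. Its part in these shares was not tested.

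A large group of members met none of these lists. At 487 sites (37.7%, 95% CI 35.1 to 40.3) no pooled MLL3/4 list, in skin or culture, and neither the WT-SOX9 nor the dTA-SOX9 list had a peak, although 14 of them lay on the longer no-DOX MLL3/4 list of replicate 1 alone. Peaks seen earlier were of this kind in 10.9% of cases and W6-only sites in 35.8%. The skin lists of W1 and W2 enter these shares, so the contrast with peaks seen earlier is again not independent of the selection. These members held the AP1 word in 33.7% and the SOX word in 25.9% of windows, and 5.95% were at promoters. Of the 922 peaks seen earlier of this kind, 22.6% held the AP1 word, 36.4% the SOX word and 8.13% were at promoters.

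The 20 members of highest maximum fell into different kinds. Pcdh15, at 8456 RPKM and 184 fragments, overlapped no other list at all. Eya4 (4458 RPKM) overlapped WT-SOX9, dTA-SOX9 and cultured MLL3/4 peaks with and without DOX. Phldb2 (5101 RPKM) overlapped WT-SOX9, dTA-SOX9 and WT-SOX9 MLL3/4, with a W6 SOX9 peak only 188 bp away. Gdf6 (4872 RPKM), Tex36 (4642 RPKM) and Slc9a4 (4412 RPKM) overlapped dTA-SOX9 and not WT-SOX9, and the Tex36 site also lay on the MYC-tag list made without DOX. Astn2 (5331 RPKM), Txnl1 (4550 RPKM) and Sh3d19 (4412 RPKM) overlapped both. Slc4a3 (4550 RPKM), a site with a RUNX word, overlapped WT-SOX9 and not dTA-SOX9. Slc39a10 (6066 RPKM, intergenic, 154612 bp from the start of this zinc importer gene) and Lhfpl3 (4412 RPKM) overlapped none of the lists, and Fam210b (5561 RPKM) only MLL3/4 of dTA-SOX9 cells.

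Another 6 of the 20 were narrow, under 150 bp. They lay at Fam227b (7078 RPKM), Acacb (6526 RPKM), Adam10 (5883 RPKM, inside Lipc), St6galnac3 (5469 RPKM), Gm17521 (5193 RPKM) and Zfp821 (5147 RPKM). All 6 overlapped MLL3/4 peaks of W1 and W2 skin, none of the other 14 overlapped MLL3/4 in skin, and 52.5% to 94.1% of each window was masked repeat. The set held 20 such narrow peaks (1.55%, against 0.296% of peaks seen earlier and 0.0249% of W6-only sites), 17 of them with the maximum in a masked repeat and 11 on D0 MLL3/4. Over all members the maximum lay in a masked repeat in 126 cases (9.74%), against 7.59% of all W12 peaks and 7.26% of those seen earlier, a difference of 2.48 points (95% CI 0.875 to 4.30). Without narrow peaks, an alternative chosen after seeing them, it was 1.44 points (95% CI -0.0827 to 3.19), and above 3600 RPKM it was 14.1 points (95% CI 5.23 to 26.4). Without narrow peaks, 6.44% of members lay on D0 MLL3/4.

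The 1293 sites had 1091 nearest protein-coding genes, of which 927 had 1 site, 137 had 2 and 27 had 3 or more. For 307 of these genes (28.1%) no SOX9 peak of D0 to W6 had them as its nearest gene, Pcdh15, Eya4 and Lhfpl3 among them. Since the members were selected on the same lists, this share is a description. Cubn, the gene of the endocytic receptor cubilin, had 5 members inside it at 1884 to 2482 RPKM, and 4 of them lay on dTA-SOX9 and 0 on WT-SOX9. Gsdmc, of the pore-forming gasdermins, also had 5, but they lay 346281 to 907470 bp from its start. Dusp10, a phosphatase of the stress kinases JNK and p38, had 4 at 2160 to 3401 RPKM, all on dTA-SOX9 and on cultured no-DOX MLL3/4, 3 also on WT-SOX9 and 0 on MLL3/4 in skin. Thsd7a had 4, 3 of them on WT-SOX9 and 0 on no-DOX MLL3/4. Wdr72 had 4, all within 14387 bp of its annotated starts, none on any list of cultured SOX9 or MLL3/4. No SOX9 peak of another time point had Thsd7a or Wdr72 as its nearest gene. Nrxn3 had 4 inside it, the ephrin receptor gene Epha7 had 4, Slc39a10 had 4 and Mon1b had 3, all of these last on dTA-SOX9. Zeb2, a repressor of the epithelial state, had 4 as its nearest gene, but all lay more than 1 Mb upstream.

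Few members had a gene of the lists for skin and its tumours as their nearest gene. Of 22 genes of epithelial-mesenchymal transition, 4 were reached by 7 members (0.541% of the members, 0.349% of all W12 peaks). Beside the distant Zeb2 sites, these were Zeb1 (2390 RPKM), Twist1 (2068 RPKM) and Tgfb2 (2022 RPKM, 2776 bp from its start). Of 18 Hedgehog genes, 3 were reached: the effector Gli3 (2849 RPKM), the co-receptor Gas1 (2206 RPKM) and Hhat (1838 RPKM), which acylates the ligand (0.232% of members, 0.205% of all W12 peaks). Of 27 angiogenesis and growth factor genes, 3 were reached, Nrp1, Angpt1 and Fgf7 (0.232% against 0.482% of all W12 peaks). Of 20 hair follicle stem cell genes 3 were reached, Col17a1, Fst and Nfib (0.232% against 0.667%). Of 41 WNT genes only Tcf7l2 (2895 RPKM) was reached (0.0773% against 0.503%). Of 12 AP-1 genes 2 were reached, Atf3 and Fos (0.155% against 0.154%), and of 27 NF-kB and inflammation genes 2, Il33 and Ptgs2 (0.232% against 0.482%). Of 24 epidermal differentiation genes 2 were reached, Gata3 from 697614 bp and Klf4 from 202098 and 246383 bp away (0.232% against 0.339%). Of 35 matrix genes 2 were reached, Tnc (3125 RPKM, on dTA-SOX9) and Col17a1 (0.155% against 0.554%). None of 14 keratin genes and none of the 4 RUNX and Cbfb genes was reached, where 0.133% and 0.287% of all W12 peaks, a longer list, had such a gene nearest. The differences between these shares were not tested.

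Genes that mark other cells of skin were nearest to 4 members in all. None of 10 melanocyte genes was reached (0.0924% of all W12 peaks). Ptprc, of 12 immune genes, had 1 member (2344 RPKM), or 0.0773% against 0.0308% of all W12 peaks. Kdr, of 10 endothelial genes, had 1 (2987 RPKM), or 0.0773% against 0.123%. Dcn, of 10 fibroblast genes, had 2 (3585 and 2574 RPKM), or 0.155% against 0.0410%. Both Dcn sites lay on dTA-SOX9 peaks of cultured keratinocytes. The members were spread over the chromosomes, with shares of W12 peaks from 9.78% on chromosome 16 to 18.1% on chromosome 5.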

How the data were processed

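CNR peak lists for SOX9 and MLL3/4 in EpdSCs and for MLL3/4 and the MYC tag in cultured keratinocytes were used, 16 called on 2 pooled samples each and 2 on replicate 1 alone. Samples were grouped by their labels. JUN, ARID1a and BRG1 CNR was not analysed here. By the study's methods, the authors used Skewer for trimming, Bowtie2 2.2.9 for alignment to mm10 and Picard against duplicates. They kept fragments up to 120 bp with SAMtools 1.3.1 and made tracks with deepTools 3.1.2 (versions from the submitters' processing notes). They called peaks with SEACR at a threshold of 0.01. Maximum signal is deposited in RPKM for SOX9, the MYC tag and the lists of replicate 1 alone, scaled by the authors to library size, and the pooled ones were kept by them above 1800. The deposited total signal is the sum over the bases of a peak, and the pooled MLL3/4 lists hold unscaled signal as the authors deposited it. Such limits decide which weak sites count as absent. Depth was not in the files and was read from the step of the RPKM values, with 1 step assumed to be 1 fragment.

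Overlap meant at least 1 bp, and the local background used peaks moved by 10 kb to each side. Words were counted on both strands within 50 bp of the maximum and in control windows 1 kb to each side. Sequence came from the RefSeq GRCm38.p6 assembly and genes from GENCODE vM21. No test between groups was possible. Newcombe intervals over peaks are given, which cover counting error only and do not stand in for such a test. Named sites were the 20 strongest members (1 of them is not reported here), the 10 genes with most members (ties by total signal), genes of the lists, the strongest sites per word (Nuf2 and Slc39a11 among them) and those at the border of the rule. The Acacb, Slc4a3, Tnc and Iqschfp windows were left unprinted. Members and lists were chosen with earlier results of these data known. Alternatives were stricter overlaps, merging within 500 bp, signal limits, autosomes, other words, windows and promoters, the list of replicate 1 alone, and, added after seeing the data, a width of at least 150 bp and a dTA-SOX9 list cut to the WT-SOX9 length. The code was tested on simulated data. Python 3.11.15, pandas 2.3.3 and numpy 2.4.6 were used, and matplotlib 3.10.9 for plots.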

Additional observations from a re-analysis of the deposited data

How the results depend on the processing

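The number of W12-only sites was 58 above 3600 RPKM and 243 in the 50% of peaks with the highest total signal, and within 1.5 times 1293 under the other alternatives. Of 166 values under alternatives, 141 kept their direction and their side of 0 or stayed within 1.5 times. Above 3600 RPKM the differences in percentage points from peaks seen earlier were 6.19 for AP1, -1.81 for RUNX (reversed), 0.611 for GATA (reversed), -0.153 for promoters and -7.03 for dTA-SOX9 overlap (reversed). From W6-only sites they were -2.35 for SOX (reversed), 1.44 for AP1, -1.55 for RUNX (reversed), 2.15 for promoters (reversed) and -1.70 for D0 MLL3/4. None of these 10 intervals left out 0 with 58 members left. At or below 2700 RPKM the differences from peaks seen earlier were 0.792 for SOX (reversed), 1.36 for RUNX and 4.81 for dTA-SOX9. In the 50% of peaks with the highest total signal they were -2.95 for SOX, 4.02 for AP1, 0.406 for masked repeats and 11.8 for dTA-SOX9, and the no-DOX MLL3/4 difference from W6-only sites was 7.43 (reversed). With windows of 100 bp to each side the SOX differences were -2.68 from peaks seen earlier and 3.68 from W6-only sites, and with shorter SOX words -1.37 and 9.54. Without narrow peaks the masked repeat difference was 1.44. The causes were not tested.

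No paired analysis was possible because each group is represented by 1 list of pooled replicates. For the same reason no replicate could be left out, except in the 2 lists of replicate 1 alone. With the no-DOX MLL3/4 one the differences were -18.3 points from peaks seen earlier and -1.30 points from W6-only sites, and with the no-DOX MYC-tag one -8.65 and 0.211 points, against -4.26 and 0.876 points in the pooled list. The median member rests on 47 fragments, so presence in 1 list and absence from another can turn on few fragments. For pooled MLL3/4 lists the depth could not be read.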
